A study of Homo sapiens with 15 samples.

Results

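Among the genes measured in Caco-2 cells exposed to food emulsifiers, 10 genes of the hypoxia response outside glycolysis were followed: HIF1A and 9 genes known as targets of hypoxia-inducible factor (HIF), namely VEGFA, ADM, EGLN3, P4HA1, BNIP3, BNIP3L, NDRG1, ANKRD37 and CA9. They were chosen by name, and all 10 symbols were found among the 69215 genes of the count tables. The question was whether changes in glycolytic genes under the emulsifiers went with a wider HIF response.

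Caco-2 is a human colorectal adenocarcinoma line that forms a monolayer resembling the absorptive lining of the gut. RNA was sequenced from 5 libraries of monolayers exposed to polysorbate 20 (PS20) at 0.05% for 24 h, 5 exposed to polysorbate 80 (PS80) at 0.05% for 24 h, and 5 of unexposed control cells of the same line. Both are surfactants built on polyoxyethylene sorbitan, and PS20 carries the fatty acid laurate where PS80 carries oleate. The labels do not say whether replicates were separate cultures, so the p-values measure the spread between these libraries, which may be technical.

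HIF is a pair of proteins, an oxygen-regulated α subunit (HIF-1α from HIF1A, HIF-2α from EPAS1) and the stable partner ARNT. When oxygen is plentiful, prolyl hydroxylases (EGLN1, EGLN2, EGLN3) mark the α subunit for destruction by the VHL ubiquitin ligase, and HIF1AN blocks its contact with coactivators. When oxygen or hydroxylase activity falls, the protein accumulates and binds short core motifs near genes for glucose use, blood vessel growth, collagen modification and mitochondrial turnover, so that HIF1A mRNA itself is a poor gauge of HIF activity.

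The HIF core motif is the 5 letters ACGTG or GCGTG, and both were searched on both strands in the 250 bases before the RefSeq start site. RefSeq promoter entries (GRCh38.p14) were matched for 7 of the 10 genes, and in 6 of them the window held at least 1 match. Among 35116 RefSeq windows of the same length, 18.5% held ACGTG, 32.2% held GCGTG and 43.2% held either. The windows of 5 of those 7 genes are shown. They are the ones called in the tests given later (P4HA1, ADM and EGLN3), the one richest in matches (BNIP3) and the one with a single count in all libraries (CA9). VEGFA, NDRG1 and BNIP3L were also called in those tests but had no matched entry, so their windows were not searched. Capitals mark the matches, and CACGT and CACGC are the motifs as read on the opposite strand.
P4HA1, chr10:73096867-73097116, minus strand: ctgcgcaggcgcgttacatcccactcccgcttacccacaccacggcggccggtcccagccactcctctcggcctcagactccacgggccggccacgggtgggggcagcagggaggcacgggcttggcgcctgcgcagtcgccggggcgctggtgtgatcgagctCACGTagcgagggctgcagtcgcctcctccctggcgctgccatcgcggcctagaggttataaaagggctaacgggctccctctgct
ADM, chr11:10304823-10305072, plus strand: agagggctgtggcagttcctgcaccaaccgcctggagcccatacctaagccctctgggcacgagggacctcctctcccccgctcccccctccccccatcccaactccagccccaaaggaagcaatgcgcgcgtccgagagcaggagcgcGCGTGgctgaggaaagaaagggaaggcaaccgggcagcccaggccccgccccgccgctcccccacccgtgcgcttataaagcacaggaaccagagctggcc
EGLN3, chr14:33951075-33951324, minus strand: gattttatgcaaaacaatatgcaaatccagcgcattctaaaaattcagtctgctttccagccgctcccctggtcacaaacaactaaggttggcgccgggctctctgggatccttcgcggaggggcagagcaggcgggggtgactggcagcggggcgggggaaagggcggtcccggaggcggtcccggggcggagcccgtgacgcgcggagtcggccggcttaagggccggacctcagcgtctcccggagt
BNIP3, chr10:131981924-131982173, minus strand: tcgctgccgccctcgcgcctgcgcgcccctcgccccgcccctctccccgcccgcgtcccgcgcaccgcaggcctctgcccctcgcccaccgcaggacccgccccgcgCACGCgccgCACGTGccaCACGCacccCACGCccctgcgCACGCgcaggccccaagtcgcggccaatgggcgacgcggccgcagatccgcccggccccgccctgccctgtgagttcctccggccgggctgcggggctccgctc
CA9, chr9:35673678-35673927, plus strand: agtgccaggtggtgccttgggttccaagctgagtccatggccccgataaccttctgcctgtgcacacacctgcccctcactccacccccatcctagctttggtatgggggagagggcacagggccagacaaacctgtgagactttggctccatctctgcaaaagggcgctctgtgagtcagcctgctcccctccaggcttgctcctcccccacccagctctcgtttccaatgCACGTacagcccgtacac
P4HA1 and CA9 held 1 ACGTG each, at bases -86 to -82 and -18 to -14 from the start site. ADM held 1 GCGTG. BNIP3 held 6 matches within a stretch from base -143 to -100, of which 4 were GCGTG and 2 were ACGTG on both strands of 1 palindrome. The EGLN3 window held none, and its RefSeq start lies inside the longer gene model of the count tables. ANKRD37 held 3 ACGTG matches, 2 of them from 1 palindrome, and HIF1A, which had 2 entries, held 1 GCGTG in the first window and no match in the second. A match is a description of these letters and not evidence of binding.

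**Figure D1:**
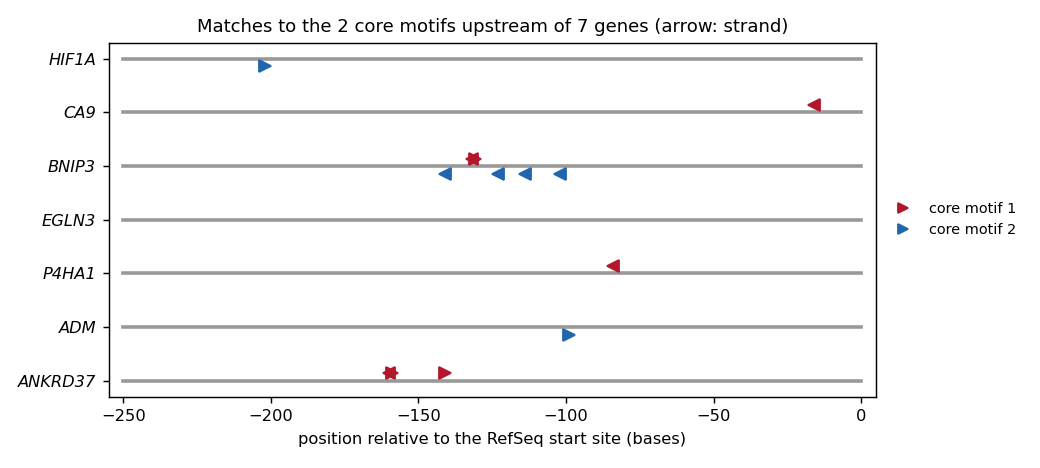
Positions of the HIF core motif in the 250 bases upstream of the RefSeq start site (x axis, bases from the start site) for the 7 genes with an entry; red arrows are ACGTG (core motif 1), blue arrows GCGTG (core motif 2), pointing along their strand. Matches of BNIP3 lie together between -143 and -100, and EGLN3 has none.

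Total counts per library were 6749086 to 17251564 with PS20 (median 8335083), 6769409 to 42271053 with PS80 (median 10120136) and 4183096 to 13616301 in control (median 7291913). Levels are CPM, counts scaled to a common library size, and 12769 genes passed the filter on low counts. Replicates 1 and 2 of a group stood apart from replicates 3 to 5 for many genes, although no label or header gives a batch. Results are therefore also given within replicates 1 and 2 and within replicates 3 to 5. That split was chosen after the values were seen, so adjusted p within either set can be too small and are a description. Replicates 1 and 2 leave only 2 libraries per group. In the control group, replicates 1 and 2 both lay above replicates 3 to 5 for 19.1% of the tested genes. Counting used featureCounts 2.0.3 in PS80 replicates 1, 3, 4 and 5 and version 2.0.0 in all other libraries, and the counter version and the exposure cannot be told apart within those 4. Of 10 intestinal epithelial markers, 8 were tested, KRT20 had 0 counts in all 15 libraries and CDX1 was near 0. Their summed level was 8607 to 9325 CPM with PS20, 10460 to 11100 CPM with PS80 and 10230 to 12050 CPM in control. With PS20, 4 of the 8 were called lower, among them the keratin genes KRT8, KRT18 and KRT19 (log2 fold changes -0.73, -0.61 and -0.50), and 2 were called higher, the transcription factor gene CDX2 (0.37) and the E-cadherin gene CDH1 (0.12). With PS80, CDX2 alone was called (0.38). The part of these shifts in the results that follow was not tested. Of 12 measured fibroblast, endothelial and blood markers, 8 averaged under 1 CPM and HBB had 0 counts, while the collagen gene COL1A1 averaged 100.1 CPM with PS20, 105.3 CPM with PS80 and 96.4 CPM in control. Of the 4 of these markers that were tested, PDGFRB was lower with PS20 (log2 fold change -1.01) and with PS80 (-0.85), and PECAM1 was higher with PS80 (0.56). The summed level of these markers was 114.3 to 151.5 CPM with PS20, 104.2 to 174 CPM with PS80 and 121.5 to 159.2 CPM in control.

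Per kilobase of exon, P4HA1, HIF1A and BNIP3L were the most abundant of the 10 transcripts and CA9 the least. P4HA1 averaged 29.2 CPM per kb with PS20, 31.9 with PS80 and 25.4 in control. HIF1A averaged 26.0 CPM per kb with PS20, 25.4 with PS80 and 25.1 in control, so that these neighbours did not differ beyond their spread in control. BNIP3L followed with 20.8 CPM per kb with PS20, 16.9 with PS80 and 18.5 in control. ADM, NDRG1, BNIP3 and VEGFA lay between 3.68 and 13.7 CPM per kb in every group. EGLN3 lay between 0.629 and 0.925 CPM per kb, and ANKRD37 between 0.219 and 0.516 CPM per kb.

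Each comparison used the quasi-likelihood test of edgeR, with p-values adjusted by the Benjamini-Hochberg method over all 12769 genes, and a gene was called at an adjusted p under 0.05. Log2 fold changes are given with their standard error. In bulk RNA of this kind, fewer cells making a transcript and less of it per cell cannot be told apart. Of the 10 genes, 8 passed the low-count filter, and ANKRD37 and CA9 did not. With PS20, 2 of the 8 were called higher than in control (VEGFA and EGLN3), against 24.4% of all tested genes, and 2 were called lower (NDRG1 and ADM), against 23.9% of all tested genes. Those shares of 25% each way were near the background of a comparison in which 48.3% of all tested genes were called. With PS80, 3 of the 8 were called higher than in control (VEGFA, EGLN3 and P4HA1), against 17.4% of all tested genes, and 1 was called lower (NDRG1), against 16%. Either way, 33.4% of all genes were called with PS80. Between PS80 and PS20, edgeR called none of the 8 higher in PS80, against 18.2% of all tested genes, and 2 lower (VEGFA and BNIP3L), against 17.3%, in a comparison that called 35.5% of all tested genes. At an unadjusted p under 0.05 that count of genes higher in PS80 was also 0, and DESeq2 also called 0. The count was not 0 in every fit. It was 2 without the low-count filter. It was 1 when replicate number entered as a block, with the 2 groups alone and within replicates 3 to 5. The median log2 fold change of the 8 genes was 0.12 with PS20, 0.04 with PS80 and 0.06 for PS80 over PS20, beside 0.01, 0.0017 and -0.0021 over all tested genes. Because the 2 comparisons with control share the same control libraries, their results are not independent.

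**Figure D2:**
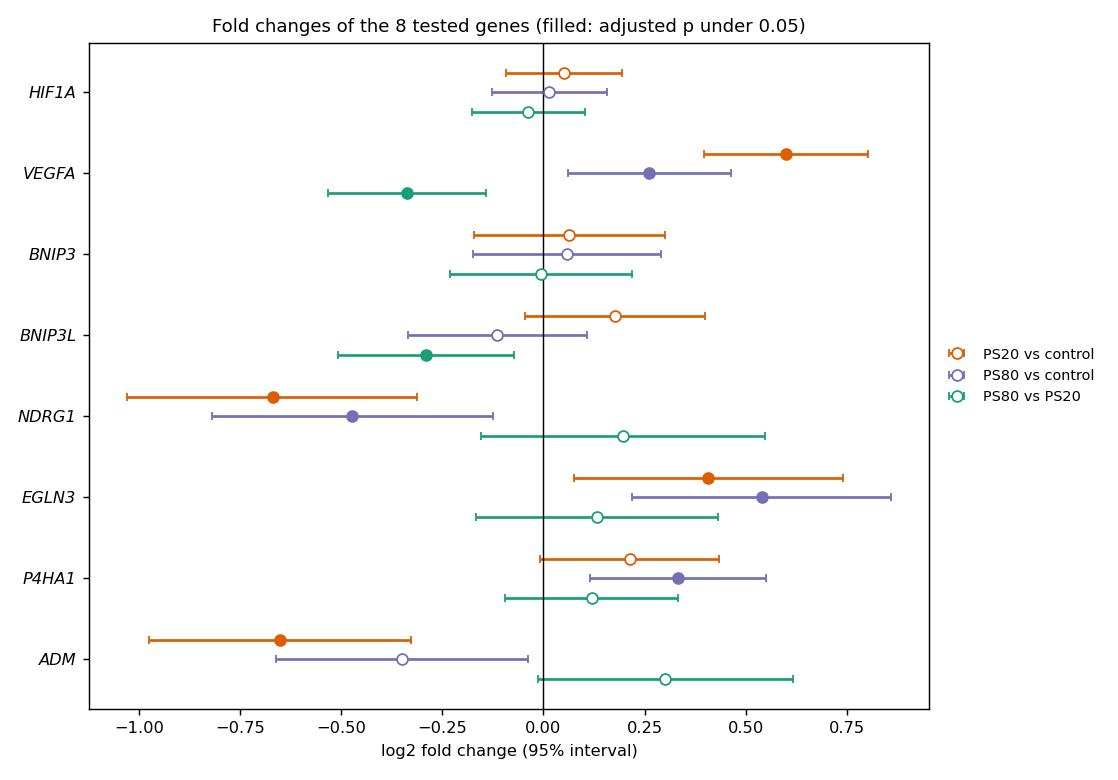
Log2 fold change (x axis) of each of the 8 tested genes with its 95% interval, in the 3 comparisons; filled points had an adjusted p under 0.05. VEGFA and EGLN3 lie to the right and NDRG1 and ADM to the left of 0 in both comparisons with control, and HIF1A and BNIP3 lie near 0 in all 3.

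HIF1A (chr14:61695513-61748259, plus strand, GRCh38) encodes the α subunit itself, and its mRNA was not called in any comparison. It was at 128.3, 140.3, 137.2, 134.4 and 128.8 CPM with PS20, at 123.5, 118.8, 132.3, 142.6 and 136.1 CPM with PS80, and at 124.8, 106.9, 139.7, 139.6 and 135.7 CPM in control. The 3 groups overlapped, and the lowest library was control replicate 2. The log2 fold change was 0.05 ± 0.07 with PS20 (edgeR adjusted p = 0.567) and 0.01 ± 0.07 with PS80 (edgeR adjusted p = 0.901). For PS80 over PS20 it was -0.04, with a 95% interval of -0.178 to 0.103. Exons of HIF1A share 11.3% of their bases with other genes, among them the antisense genes HIF1A-AS1 and HIF1A-AS3, from which unstranded counts cannot be separated.

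Of 15 genes for the other HIF subunits and the proteins that control them, 13 were tested. With PS20, 3 were called higher and 3 lower (23.1% each way, near the 24.4% and 23.9% of all tested genes), with a median log2 fold change of -0.10. HIF3A, which encodes a further α subunit whose short forms restrain the others, was 16.6 ± 0.58 CPM with PS20 and 8.65 ± 1.31 CPM in control (SD, n = 5 each), a log2 fold change of 0.93 ± 0.12 (edgeR adjusted p = 1.29e-06). It was 8.47 ± 1.22 CPM with PS80, so that the PS80 over PS20 difference was -0.97 ± 0.11 (edgeR adjusted p = 9.15e-07). EPAS1 (HIF-2α) was higher with PS20 (log2 fold change 0.27, edgeR adjusted p = 0.000233) and with PS80 (0.19, edgeR adjusted p = 0.00731). ELOB, a subunit of the VHL ligase, was higher with PS20 (log2 fold change 0.33, edgeR adjusted p = 4.24e-05) and lower with PS80 than with PS20 (-0.20, edgeR adjusted p = 0.00757).

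HIF1AN, the asparagine hydroxylase that keeps HIF from its coactivators, was 151.2 ± 2.04 CPM with PS20, 165.9 ± 11.8 CPM with PS80 and 207.7 ± 6.8 CPM in control. Every PS20 and PS80 library lay below every control library. Its log2 fold change was -0.46 ± 0.05 with PS20 (edgeR adjusted p = 2.16e-07) and -0.33 ± 0.05 with PS80 (edgeR adjusted p = 4.81e-05). ARNT, the partner of the α subunits, was lower with PS20 (log2 fold change -0.29, edgeR adjusted p = 0.00174) and with PS80 (-0.25, edgeR adjusted p = 0.00745). With PS80, 1 gene of this list was called higher and 6 lower (7.69% and 46.2%, against 17.4% and 16% of all tested genes, median -0.18), among the lower the coactivator gene CREBBP at -0.27 (edgeR adjusted p = 0.0032). The lower count was 3 without control replicate 5 or without PS80 replicate 2, and the higher count was 2 without control replicate 2, without PS80 replicate 4 or when replicate number entered as a block. Within replicates 1 and 2, 1 was called higher and 2 lower with PS20 and 0 higher and 2 lower with PS80, and within replicates 3 to 5 these counts were 3 and 5 with PS20 and 1 and 4 with PS80. Between PS80 and PS20, 1 was called higher and 2 lower (7.69% and 15.4%, against 18.2% and 17.3% of all tested genes, median -0.08). The 1 called higher was HIF1AN (0.13, edgeR adjusted p = 0.0379), and the call was lost without any 1 of PS20 replicates 1 to 5 (adjusted p 0.0531, 0.06, 0.0605, 0.0839 and 0.0579 in that order) and without PS80 replicate 2 or 4 (0.0959 and 0.12).

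VHL and EGLN1 gave less stable values. VHL, the substrate receptor that marks hydroxylated HIF for destruction, was lower with PS20 (log2 fold change -0.22 ± 0.09, edgeR adjusted p = 0.0353). That call was lost without control replicate 1, 4 or 5 (adjusted p 0.0755, 0.0769 and 0.0748) and without PS20 replicate 1 or 2 (0.0705 and 0.111). With PS80 it was not called (-0.18, edgeR adjusted p = 0.0997), but it was when replicate number entered as a block (-0.18, adjusted p 0.0328) and without control replicate 2 (-0.23, adjusted p 0.0415). EGLN1, the main HIF prolyl hydroxylase, was lower with PS80 (log2 fold change -0.47, edgeR adjusted p = 0.0453). That call was lost without control replicate 3, 4 or 5 (adjusted p 0.145, 0.052 and 0.0548) and without PS80 replicate 1 or 2 (0.0973 and 0.118). The EGLN1 difference of PS80 from PS20 was called without PS20 replicate 1 (-0.46, adjusted p 0.0379). Exons of EGLN1 and VHL share 55.8% and 23.5% of their bases with other genes, which makes both counts uncertain.

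VEGFA (chr6:43770184-43786487, plus strand), the growth factor that drives blood vessel sprouting, had the largest increase of the 8 genes with PS20. It was at 100.4, 90.1, 73.4, 71.3 and 69.7 CPM with PS20, at 75.0, 68.7, 58.4, 55.4 and 60.2 CPM with PS80, and at 51.2, 56.3, 51.8, 51.7 and 54.2 CPM in control. Every PS20 library lay above every control library, while the lowest PS80 library lay below the highest control library and PS80 overlapped PS20. Replicates 1 and 2 were the highest in both exposed groups but not in control. The rise with PS20 was 1.52-fold (log2 0.60 ± 0.10, edgeR adjusted p = 3.49e-05), and it was 0.81 within replicates 1 and 2 and 0.45 within replicates 3 to 5 (adjusted p 0.000127 and 1.05e-06).

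With PS80, VEGFA was 1.20-fold higher than in control (log2 0.26 ± 0.10, edgeR adjusted p = 0.0426), at the edge of the threshold. The call was lost without control replicate 1, 3, 4 or 5 (adjusted p 0.0838, 0.0814, 0.0905 and 0.0642) and without PS80 replicate 1 or 2 (0.127 and 0.0933). It was 0.40 within replicates 1 and 2 (adjusted p 0.0227) and 0.15 within replicates 3 to 5 (adjusted p 0.0768). Compared directly, VEGFA was lower with PS80 than with PS20 (log2 -0.34 ± 0.09, edgeR adjusted p = 0.00767), at -0.41 within replicates 1 and 2 and -0.30 within replicates 3 to 5.

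ADM (chr11:10305073-10307397, plus strand), which encodes the vasodilator peptide adrenomedullin, was lower under PS20, opposite to VEGFA. It was at 14.6, 19.4, 24.4, 19.3 and 23.6 CPM with PS20, at 19.6, 21.3, 35.3, 25.9 and 27.1 CPM with PS80, and at 26.2, 27.3, 27.9, 38.9 and 38.8 CPM in control. All PS20 libraries lay below all control libraries, and the PS80 libraries overlapped both groups. ADM with PS20 was 0.636 of its control level (log2 -0.65 ± 0.16, edgeR adjusted p = 0.00161), and the change was -0.65 within replicates 1 and 2 and -0.68 within replicates 3 to 5 (adjusted p 0.00906 and 2.51e-05).

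For PS80 the ADM difference from control was -0.35 ± 0.15 and was not called (edgeR adjusted p = 0.0765). It was called when replicate number entered as a block (-0.35, adjusted p 0.00476), without control replicate 1 or 2 (-0.41 in each, adjusted p 0.0463 and 0.0481) and without PS80 replicate 3, its highest PS80 library (-0.46, adjusted p 0.0166). Within replicates 1 and 2 it was -0.38 (adjusted p 0.0991) and within replicates 3 to 5 it was -0.34 (adjusted p 0.0228). The ADM difference of PS80 from PS20 was 0.30, with a 95% interval of -0.0148 to 0.618 (edgeR adjusted p = 0.131). That difference was called without the low-count filter (0.33, edgeR adjusted p = 0.00372) and within replicates 3 to 5 (0.34, edgeR adjusted p = 0.0207). It was also called when replicate number entered as a block (0.32, edgeR adjusted p = 0.0104).

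EGLN3 (chr14:33924227-34462774, minus strand), a HIF prolyl hydroxylase whose own gene is switched on by HIF, was higher with both emulsifiers at a low level. It was at 6.21, 5.67, 5.12, 6.37 and 7.79 CPM with PS20, at 7.29, 5.9, 7.3, 6.02 and 7.54 CPM with PS80, and at 5.79, 4.0, 3.58, 5.13 and 4.65 CPM in control. Every PS80 library lay above every control library, and PS20 overlapped control. These levels rested on 42 to 89 counts per PS20 library, 49 to 244 per PS80 library and 15 to 70 per control library. The change was 1.45-fold with PS80 (log2 0.54 ± 0.15, edgeR adjusted p = 0.00993) and was 0.46 within replicates 1 and 2 (adjusted p 0.262) and 0.59 within replicates 3 to 5 (adjusted p 0.0189).

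With PS20, EGLN3 was 1.33-fold higher than in control (log2 0.41 ± 0.16, edgeR adjusted p = 0.0404). That call was lost without control replicate 2, 3 or 5 (adjusted p 0.104, 0.0921 and 0.066) and without PS20 replicate 1, 4 or 5 (0.0589, 0.0676 and 0.122). It was also lost under DESeq2 (adjusted p 0.0809) and within either set of replicates (0.32 and 0.41, adjusted p 0.441 and 0.0856). PS80 over PS20 was 0.13, with a 95% interval of -0.166 to 0.432.

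P4HA1 (chr10:73007217-73096974, minus strand), the catalytic subunit that hydroxylates proline in newly made collagen, was called higher with PS80. It was at 89.4, 96.7, 96.8, 92.0 and 76.9 CPM with PS20, at 92.1, 93.9, 111.8, 99.1 and 96.0 CPM with PS80, and at 101.0, 91.3, 71.6, 68.7 and 59.6 CPM in control. Control replicates 1 and 2 lay at the level of the exposed libraries, and control replicates 3 to 5 lay below every one of them. The pooled change with PS80 was 1.26-fold (log2 0.33 ± 0.11, edgeR adjusted p = 0.0188), and the call was lost without control replicate 4 or 5 (adjusted p 0.066 in each). Within replicates 1 and 2 the change was -0.04 (adjusted p 0.832), and within replicates 3 to 5 it was 0.61 (adjusted p 2.04e-06), so that the rise did not hold in replicates 1 and 2.

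P4HA1 with PS20 was not called against control (log2 0.21 ± 0.11, edgeR adjusted p = 0.105). It was called without control replicate 1 (0.30, adjusted p 0.0162) or control replicate 2 (0.28, adjusted p 0.0393), was -0.04 within replicates 1 and 2 (adjusted p 0.809) and was 0.43 within replicates 3 to 5 (adjusted p 5.75e-05). The PS80 over PS20 difference was 0.12, with a 95% interval of -0.0946 to 0.333.

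**Figure D3:**
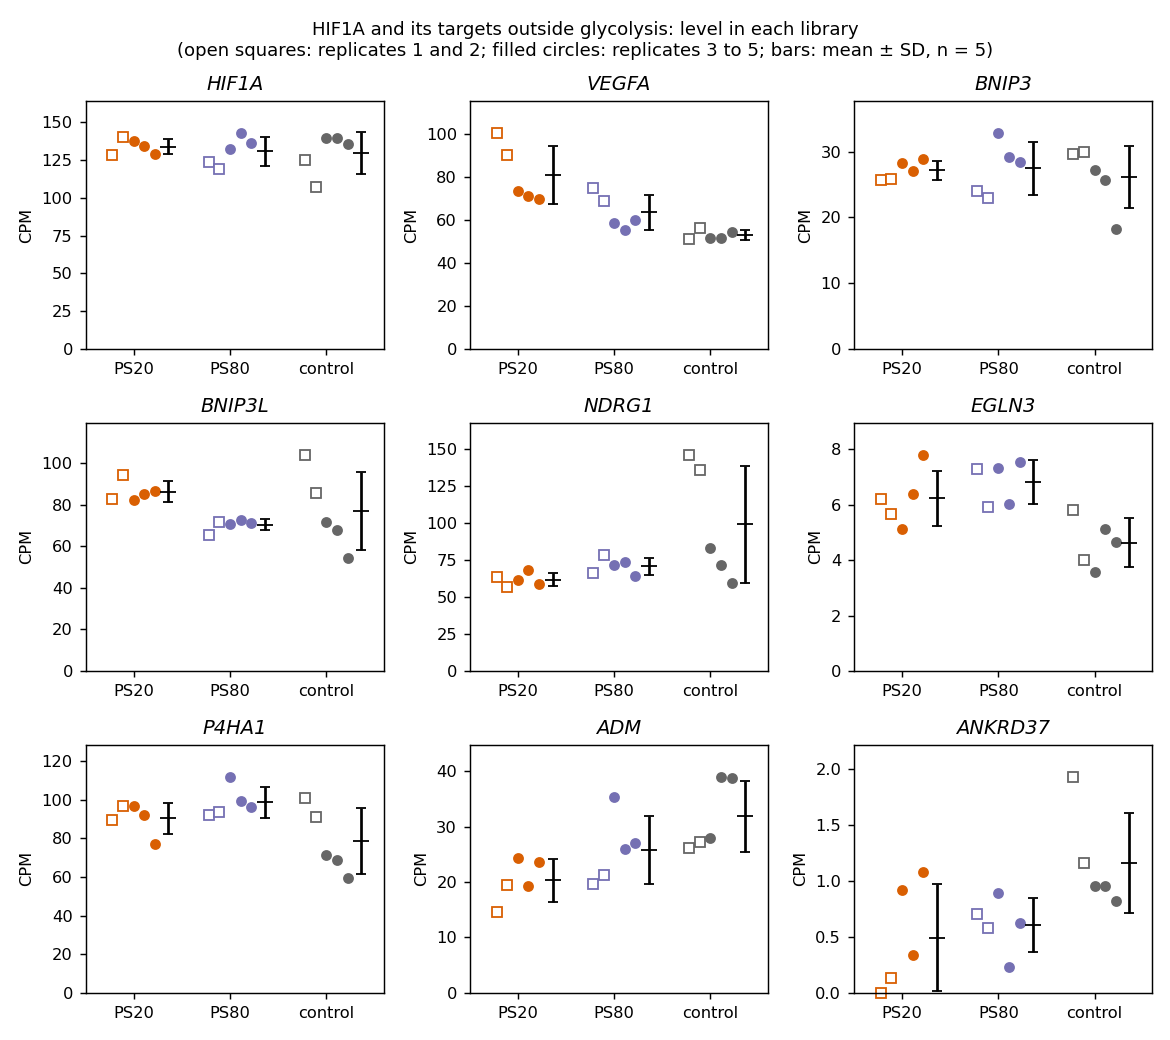
Level (y axis, CPM) of 9 of the 10 genes in each library with PS20, PS80 and in control; open squares are replicates 1 and 2, filled circles replicates 3 to 5, and bars the mean ± SD of 5 libraries. The NDRG1 control libraries split, with replicates 1 and 2 at 146.2 and 135.9 CPM and replicates 3 to 5 at 83.1, 71.5 and 59.3 CPM; CA9, with 1 count in all libraries, is not drawn.

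BNIP3 and BNIP3L encode related receptors on the mitochondrial outer membrane that mark mitochondria for removal by autophagy. BNIP3 (chr10:131967684-131981967, minus strand) was at 25.7, 25.8, 28.2, 27.1 and 28.9 CPM with PS20, at 24.0, 22.9, 32.8, 29.2 and 28.4 CPM with PS80, and at 29.6, 29.9, 27.2, 25.7 and 18.3 CPM in control. The groups overlapped throughout, with the lowest value in control replicate 5. It was not called in any comparison (log2 0.06 ± 0.11 with PS20 and 0.06 ± 0.11 with PS80, edgeR adjusted p = 0.672 and 0.734; PS80 over PS20 -0.01, 95% interval -0.232 to 0.219). With PS80 the direction differed between replicate sets, at -0.35 within replicates 1 and 2 (adjusted p 0.0731) and 0.33 within replicates 3 to 5 (adjusted p 0.0197), and with PS20 it was -0.21 and 0.25 in those sets (adjusted p 0.268 and 0.0544).

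BNIP3L (chr8:26383054-26505636, plus strand) was at 82.6, 94.4, 82.1, 85.1 and 86.6 CPM with PS20, at 65.6, 71.6, 70.8, 72.4 and 71.1 CPM with PS80, and at 103.8, 85.5, 71.6, 68.0 and 54.5 CPM in control. The exposed groups did not overlap each other, and the control libraries spread across both. BNIP3L was lower with PS80 than with PS20 (log2 -0.29 ± 0.11, edgeR adjusted p = 0.0348). The call was lost without PS20 replicate 2, 4 or 5 (adjusted p 0.0897, 0.0564 and 0.0603) and without PS80 replicate 1, 3 or 5 (0.0726, 0.0523 and 0.0529), while the difference was -0.36 within replicates 1 and 2 (adjusted p 0.0603) and -0.25 within replicates 3 to 5 (adjusted p 0.00421).

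Against control, BNIP3L was not called with PS20 (0.18 ± 0.11, edgeR adjusted p = 0.182) or with PS80 (-0.11 ± 0.11, edgeR adjusted p = 0.442), and neither pooled value held within the replicate sets. With PS20 it was -0.09 within replicates 1 and 2 (adjusted p 0.639) and 0.39 within replicates 3 to 5 (adjusted p 4.19e-05), and it was called without control replicate 1 (0.29, adjusted p 0.0121). With PS80 it was -0.45 within replicates 1 and 2 (adjusted p 0.0178) and 0.15 within replicates 3 to 5 (adjusted p 0.123).

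NDRG1 (chr8:133237175-133302022, minus strand), a stress-response gene induced by low oxygen and by loss of iron, had the lowest log2 fold change of the 8 genes in both comparisons with control. It was at 63.9, 57.1, 61.4, 68.4 and 58.9 CPM with PS20, at 66.7, 78.7, 71.7, 73.5 and 64.1 CPM with PS80, and at 146.2, 135.9, 83.1, 71.5 and 59.3 CPM in control. Both exposed groups were tight, and the control group was not: control replicates 1 and 2 lay above every other library, and control replicate 5 lay within the PS20 range. Pooled, NDRG1 was lower with PS20 (log2 -0.67 ± 0.17, edgeR adjusted p = 0.00279) and with PS80 (log2 -0.47 ± 0.17, edgeR adjusted p = 0.0338).

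The NDRG1 differences rested on replicates 1 and 2. Within those replicates the log2 fold change was -1.22 with PS20 (adjusted p 4.66e-06) and -0.94 with PS80 (adjusted p 8.36e-05), against -0.16 with PS20 (adjusted p 0.126) and -0.03 with PS80 (adjusted p 0.836) within replicates 3 to 5. With all exposed libraries set against control replicates 3 to 5, an alternative chosen after seeing the data, it was -0.20 with PS20 (adjusted p 0.0937) and 0.0018 with PS80 (adjusted p 0.991). The PS80 call was also lost without control replicate 1 or 2 (-0.31 and -0.32, adjusted p 0.126 and 0.143), without PS80 replicate 1 or 5 (adjusted p 0.0671 and 0.0686) and under DESeq2 (adjusted p 0.0712). PS80 over PS20 was 0.20, with a 95% interval of -0.154 to 0.547. That interval comes from the fit of all 3 groups, whose shared estimate of spread includes the split control group. With the 2 exposed groups alone the difference was 0.20 and was called (edgeR adjusted p = 0.0327).

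ANKRD37 (chr4:185396021-185400628, plus strand), a small ankyrin-repeat protein gene used as a hypoxia marker, had 0, 1, 16, 3 and 9 counts with PS20, 7, 24, 6, 2 and 14 counts with PS80, and 9, 11, 4, 13 and 6 counts in control. Its mean was 0.494 ± 0.48 CPM with PS20, 0.606 ± 0.244 CPM with PS80 and 1.16 ± 0.445 CPM in control (SD, n = 5 each), and the groups overlapped. In the fit without a filter on low counts it was -0.97 with PS20 (edgeR adjusted p = 0.11) and -0.86 with PS80 (edgeR adjusted p = 0.166). Exons of ANKRD37 share 40.3% of their bases with UFSP2 on the opposite strand, so its counts are uncertain.

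CA9 (chr9:35673928-35681159, plus strand), the cell-surface carbonic anhydrase that is among the most strongly hypoxia-induced genes, had 1 count in all 15 libraries, in PS80 replicate 2. The 0 counts of the PS20 libraries together allow a level of up to 0.0614 CPM and those of the control libraries up to 0.0763 CPM, for counting error only. CA9 was thus near 0 in every group, and a difference below these levels was not detectable at this depth. Exons of CA9 share 35.7% of their bases with ARHGEF39 on the opposite strand, so its counts and these limits are uncertain beyond depth.

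**Figure D4:**
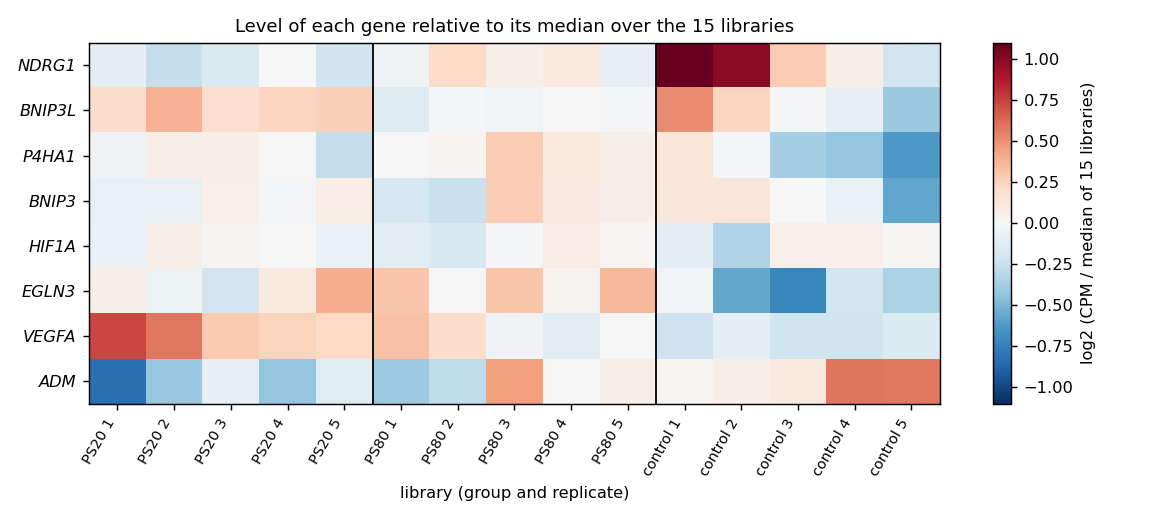
Level of each of the 8 tested genes in each library (columns, by group and replicate) as log2 of CPM over the gene's median of 15 libraries (colour scale). Control replicates 1 and 2 are red for NDRG1 and BNIP3L, PS20 replicates 1 and 2 are red for VEGFA, and PS20 replicate 1 is the bluest for ADM.

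Of the 8 tested genes, 4 (NDRG1, BNIP3L, P4HA1 and BNIP3) had control replicates 1 and 2 both above control replicates 3 to 5 (50%, against 19.1% of all tested genes). In the exposed groups the pattern was absent for these 4 genes. With PS20, 1 of the 8 (VEGFA) had replicates 1 and 2 above the others, against 14% of all tested genes, and with PS80 also 1 of 8 (VEGFA), against 16.9%. With PS80, 5 of the 8 had replicates 1 and 2 below the others, against 22.9% of all tested genes. The counts and shares of this split scaled each library by its total over the tested genes alone. They left out the scaling factors that enter the CPM given elsewhere. By those CPM, BNIP3L did not follow the PS80 pattern, since its PS80 replicate 2 lay above replicates 3 and 5. This split was chosen after the values were seen and is a description. What distinguishes those control libraries was not tested.

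Of 39 other HIF targets outside glycolysis, 30 were tested. With PS20, 10 were called higher and 8 lower (33.3% and 26.7%, against 24.4% and 23.9% of all tested genes, median log2 fold change -0.01). With PS80, 11 were called higher and 6 lower (36.7% and 20%, against 17.4% and 16% of all tested genes, median 0.07). STC2, which encodes the secreted glycoprotein stanniocalcin 2, was 243.3 CPM with PS20, 169 CPM with PS80 and 114.1 CPM in control (log2 1.10 and 0.57, edgeR adjusted p = 1.29e-10 and 4.6e-06). DDIT4, the mTORC1 inhibitor REDD1, was 54.4 CPM with PS20 and 14.5 CPM in control (log2 1.94 ± 0.16, edgeR adjusted p = 3.08e-09). P4HA2, which encodes another isoform of the P4HA1 subunit, was higher with PS20 by 0.63 ± 0.07 (edgeR adjusted p = 4.57e-07). With PS80, P4HA2 was higher than in control by 0.25 ± 0.07 (edgeR adjusted p = 0.00945). STC2, DDIT4 and VEGFA are also known targets of the amino acid and endoplasmic reticulum stress factor ATF4.

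With PS80 the membrane carbonic anhydrase CA12 was 5.48 CPM against 1.14 CPM in control (log2 2.32 ± 0.27, edgeR adjusted p = 2.69e-06). The transcription factor gene MAFF was 8.42 CPM with PS80 and 4.42 CPM in control, higher by 0.89 ± 0.17 (edgeR adjusted p = 0.000371). With PS20, CA12 averaged 3.78 CPM and MAFF 9.08 CPM, and every PS20 library lay above every control library for both genes. Neither rise was particular to PS80. Lower genes included WSB1, a ubiquitin ligase subunit, at -0.99 with PS20 and -0.79 with PS80 (edgeR adjusted p = 9.22e-07 and 3.56e-05). ZNF395, a zinc finger gene (-0.51), and AK4, a mitochondrial adenylate kinase (-0.35), were lower with PS20 (edgeR adjusted p = 1.38e-06 and 0.00021). With PS80 these 2 genes averaged 67.6 and 155.1 CPM, against 72.1 and 178.2 CPM in control. TMEM45A, a membrane protein gene (-0.81), and RORA, a nuclear receptor gene (-0.70), were lower with PS80 (edgeR adjusted p = 0.000177 and 0.0158). TMEM45A averaged 7.02 CPM with PS20 and 10.6 CPM in control, and RORA 15.6 CPM with PS20 and 20.8 CPM in control. The RORA call was lost without control replicate 4 (adjusted p 0.0613). The count of 11 higher with PS80 was 7 without control replicate 4, and the count of 6 lower was 3 without control replicate 2. Within replicates 1 and 2, 7 were called higher and 5 lower with PS20 and 3 higher and 6 lower with PS80, and within replicates 3 to 5 these counts were 10 and 10 with PS20 and 11 and 3 with PS80. Exons of ZNF395 share 35.0% of their bases with other genes.

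Between PS80 and PS20, 6 of those 30 were called higher and 6 lower (20% each way, near the 18.2% and 17.3% of all tested genes, median 0.02). DDIT4 and STC2 were lower with PS80 than with PS20 (-1.43 and -0.53, edgeR adjusted p = 1.6e-07 and 5.05e-06), as was the haem-degrading enzyme gene HMOX1 (-0.70 ± 0.13, edgeR adjusted p = 0.000188). ZNF395, the transferrin receptor gene TFRC and the collagen lysyl hydroxylase gene PLOD1 were higher (0.42, 0.31 and 0.20, edgeR adjusted p = 2.73e-05, 0.000594 and 0.00457).

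For glycolysis and lactate export, 20 of 22 listed genes were tested. SLC2A3 and LDHA had no counts paired with their symbols and were not analysed, so their levels are unknown here. Exons of ALDOA, which was tested, share 54.2% of their bases with other genes. With PS20, 3 were called higher and 6 lower (15% and 30%, against 24.4% and 23.9% of all tested genes, median -0.03). With PS80, edgeR called 10 higher and 0 lower (50% and 0%, against 17.4% and 16%, median 0.24), and the count lower was also 0 at an unadjusted p under 0.05 and by DESeq2. Between PS80 and PS20, 13 were called higher and 1 lower (65% and 5%, against 18.2% and 17.3%, median 0.33). The glucose transporter gene SLC2A1 was 632 CPM with PS20, 803.9 CPM with PS80 and 373.3 CPM in control (log2 0.76 and 1.11, edgeR adjusted p = 9.21e-08 and 6.08e-09). SLC16A3, the lactate exporter MCT4, was 17.0 CPM with PS20, 11.9 CPM with PS80 and 4.08 CPM in control (log2 2.09 and 1.60, edgeR adjusted p = 4.45e-09 and 9.91e-07), and was lower with PS80 than with PS20 (-0.50, edgeR adjusted p = 0.00802).

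Of the 6 genes called lower with PS20, those with the smallest p encode the enzymes PKM (pyruvate kinase, -0.87), PGAM1 (phosphoglycerate mutase, -0.65) and TPI1 (triosephosphate isomerase, -0.44) (edgeR adjusted p = 1.02e-11, 7.89e-08 and 8.8e-08). PFKP, a phosphofructokinase isoform, was higher with PS80 than in control by 0.75 and than with PS20 by 0.85 (edgeR adjusted p = 2.05e-08 and 1.95e-09). PKM and PGAM1 were higher with PS80 than with PS20 by 0.79 and 0.70 (edgeR adjusted p = 2.04e-10 and 8.98e-08). The regulator gene PFKFB3 was called higher with PS20 (0.21, edgeR adjusted p = 0.0446). That call was lost without control replicate 3, 4 or 5 (adjusted p 0.0931, 0.104 and 0.14) and without PS20 replicate 3, 4 or 5 (0.113, 0.0503 and 0.105). The count of 3 higher with PS20 was 5 without control replicate 2. Within replicates 1 and 2, 2 of the 20 were called higher and 5 lower with PS20 and 4 higher and 0 lower with PS80, and within replicates 3 to 5 these counts were 6 and 6 with PS20 and 11 and 0 with PS80. Side by side, PS80 gave 10 of 20 glycolytic genes higher and 0 lower, with 3 of the 8 HIF genes higher and 1 lower, where 17.4% of all tested genes were higher and 16% lower. PS20 gave 3 of 20 glycolytic genes higher and 6 lower, with 2 of the 8 HIF genes higher and 2 lower, where 24.4% of all tested genes were higher and 23.9% lower. The PS20 shares of the 8 HIF genes and their lower share with PS80 (12.5%) were near these backgrounds. The 3 of 8 higher with PS80 were 1 within replicates 1 and 2. Of the 30 other HIF targets, PS80 gave 11 higher and 6 lower (36.7% and 20%), and PS20 gave 10 higher and 8 lower (33.3% and 26.7%).

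**Figure D5:**
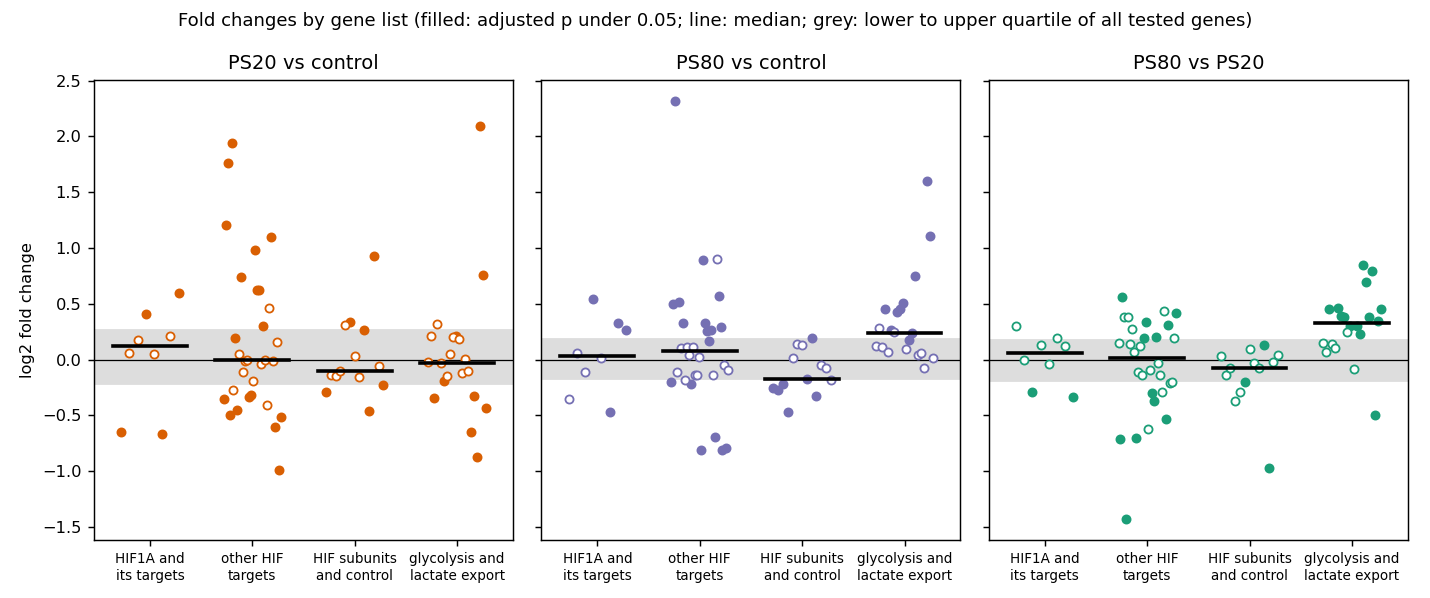
Log2 fold change (y axis) of the tested genes of 4 lists in each comparison; filled points had an adjusted p under 0.05, black lines are list medians and the grey band runs from the lower to the upper quartile of all 12769 tested genes. In PS80 vs control the glycolysis median lies at 0.24, and that of HIF1A and its targets at 0.04.

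By the smallest root mean square difference of log2 levels over the 15 libraries, each centred on its control mean, the genes most like NDRG1 among 10289 genes of at least 5 CPM were ENSG00000288670 (0.194), PLEKHA6 (0.206) and PRUNE2 (0.219), against a median of 0.539. Those most like EGLN3 were CSGALNACT1 (0.161), ADAT2 (0.165) and BTG3 (0.167), against a median of 0.485.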

How the data were processed

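The values deposited by the authors were counts, whole reads per gene and unscaled, in 1 table per library. The file headers record featureCounts 2.0.0 in 11 libraries and 2.0.3 in PS80 replicates 1, 3, 4 and 5. Per the file headers, reads of mapping quality 10 or more were assigned to GENCODE release 42, the set that includes patches, haplotypes and scaffolds, without strand or read-pair options. The submitters' processing notes name cutadapt, STAR 2.7.9a, GRCh38 and DESeq2 1.32.0. Counting without strand cannot separate a gene from an antisense partner.

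Symbols were paired with 61918 of 69215 gene identifiers. The software was R 4.3.3, edgeR 4.0.16 and limma 3.58.1. filterByExpr (minimum count 10, minimum total 15) left 12769 genes, and trimmed mean of M-values factors were 0.978 to 1.02. CPM is the count over the scaled library size of those genes. One model with a term per group over all 15 libraries was fitted by the quasi-likelihood test, two-sided, with a common biological coefficient of variation of 8.91%. The method was tested on simulated data with 200 genes changed and no split between replicates. That test therefore does not cover the split between replicates seen here. DESeq2 1.42.0 and the other alternatives are given in the closing section.

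The 10 genes and the lists were chosen with earlier results of these data known. The rule for names took all 10 genes, and from each list and comparison up to 3 called genes per direction with the smallest p and at least 1 CPM, with EGLN1, HIF1AN and VHL always named. Listed symbols without a value were not analysed here.

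Group titles share replicate numbers. For PS80 and control, same-numbered libraries moved together around their group means, with each of the 5 correlations across genes over 0.1 (0.102 to 0.304). Of the 5 PS80 libraries, 3 correlated best with their own number, so the evidence for pairs was mixed. The labels state no pairs, and the main tests did not pair libraries. Replicate number entered only in the fits named as a replicate block. No 2 replicates agreed within sampling noise (chi-square per degree of freedom 1.69 to 34.9).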

Additional observations from a re-analysis of the deposited data

Results flagged for a closer look

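Of 27 sets of 5 libraries looked at (1 gene in 1 group), 1 held a library far from the others. BNIP3L was at 65.6 CPM in PS80 replicate 1, the lowest of its group, while the other 4 PS80 libraries lay between 70.8 and 72.4 CPM. The gap was 0.766 of the group's range. Chance alone gives such a gap in about 1 in 20 sets. The lower level of BNIP3L with PS80 than with PS20 had an adjusted p of 0.0726 by edgeR without that library.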

How the results depend on the processing

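RLE scaling moved no call of the 8 tested genes. The counts of genes called, 6163 for PS20 vs control, 4266 for PS80 vs control and 4527 for PS80 vs PS20, ranged over 5608 to 6065, 3566 to 4167 and 3840 to 4420 when 1 library was left out, and were 3116, 2025 and 1397 within replicates 1 and 2. With PS80 represented by its single library of counter version 2.0.0, assumed to vary like the other groups, they were 2816 against control and 2351 against PS20. Fewer samples entered these fits.

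Among the 8 genes, the 2 called higher with PS20 were 1 under DESeq2, with the 2 groups alone and within replicates 1 and 2 (1 to 4 with a library left out). The 2 called lower were 1 within replicates 3 to 5 and with controls 3 to 5, and 2 in every fit without 1 library. For PS80 the 3 called higher were 1 within replicates 1 and 2 and 0 with its version 2.0.0 library (1 to 3). The 1 called lower was 0 under DESeq2 and with the 2 groups alone, and 2 without a filter, with the replicate block and within replicates 1 and 2 (0 to 2). For PS80 over PS20, the 0 called higher were 2 without a filter and 1 with the replicate block, with the 2 groups alone and within replicates 3 to 5 (0 in every fit without 1 library). The 2 called lower were 1 within replicates 1 and 2 and 0 with the version 2.0.0 library (1 to 2). The causes were not tested.

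Some signs turned, mostly of values near 0. HIF1A with PS20 was -0.0448 within replicates 3 to 5 and -0.0542 with controls 3 to 5 (-0.0147 to 0.0832 leaving 1 library out). With PS80 it was -0.0151 and -0.0896 in those fits and -0.12 for the version 2.0.0 library (-0.0511 to 0.0499), and for PS80 over PS20 it was 0.0297 within replicates 3 to 5. BNIP3 was -0.21 with PS20 and -0.35 with PS80 within replicates 1 and 2 and -0.18 for the version 2.0.0 library (-0.0423 to 0.127 and -0.0477 to 0.129). Its PS80 over PS20 value was 0.0065 under DESeq2, 0.0258 without a filter, 0.0031 with the replicate block and 0.0783 within replicates 3 to 5 (-0.0654 to 0.0644). BNIP3L was -0.0881 with PS20 within replicates 1 and 2, and with PS80 0.15 within replicates 3 to 5 and 0.12 with controls 3 to 5. NDRG1 with PS80 was 0.0018 with controls 3 to 5. EGLN3 for PS80 over PS20 was -0.0512 with the version 2.0.0 library. P4HA1 was -0.0444 with PS20 and -0.0415 with PS80 within replicates 1 and 2. EGLN1 with PS20 was 0.0297 within replicates 3 to 5 (-0.244 to 0.0508), and PFKFB3 with PS20 was -0.0483 within replicates 1 and 2. VHL for PS80 over PS20 was -0.0293 with the version 2.0.0 library (-0.0159 to 0.0927).

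With the 2 groups alone or without a filter, NDRG1 was called higher with PS80 than with PS20 (0.20 and 0.23, adjusted p 0.0327 and 0.0136). The PS20 call of EGLN3 was lost in both (adjusted p 0.0511 and 0.143). For PS80 and control, the replicate block changed the calls of ADM and VHL, changed no call of the other 7 tested genes, and called 2 HIF control genes higher in place of 1. For PS20 and control (correlations -0.0264 to 0.248, 4 of 5 libraries best with their own number) and PS80 and PS20 (0.0741 to 0.29, 3 of 5), not every correlation passed 0.1. There the block added calls for P4HA1 with PS20 (adjusted p 0.0415) and for ADM and EGLN1 in PS80 over PS20 (0.0104 and 0.0456). Of the list counts, the 3 HIF control genes lower with PS20 were 5 with the replicate block, with the 2 groups alone and within replicates 3 to 5. The 13 glycolytic genes higher with PS80 than with PS20 were 8 within replicates 1 and 2, and the 11 other HIF targets higher with PS80 than in control were 5 with the version 2.0.0 library. Depth limits CA9, ANKRD37 and EGLN3.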
